A study of Mus musculus with 3 samples.

Results

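The TNF receptors and NF-kB components described here are 10 genes of the hippocampal RNA-seq table: the receptors Tnfrsf1a and Tnfrsf1b, the adaptor Tradd, the NF-kB subunit genes Nfkb1, Nfkb2, Rela and Relb, and the inhibitors or feedback genes Nfkbia, Tnfaip3 and Birc3. They were chosen by gene name, and all 10 were found among the 54532 genes of the table, 22046 of them protein-coding. The study sequenced hippocampal RNA from mice aged 10 months on a C57BL/6 background, with 1 library for each of 3 genotypes: wild type (WT), PS19, and PS19 with a lost Zbp1 allele (PS19 Zbp1+/-). PS19 mice carry a transgene for a mutant human tau, expressed from the mouse Prnp promoter, and serve as a model of tau pathology, and Zbp1 encodes a sensor of Z-form nucleic acids. The transgene is shared by the PS19 and PS19 Zbp1+/- libraries and absent from the WT genotype. The labels do not say whether a library came from 1 animal or a pool. With 1 library per genotype there is no replicate error and no test between genotypes, and every comparison below is between libraries.

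Tumour necrosis factor (TNF) acts through a pair of receptors. Tnfrsf1a encodes TNFR1, a widely expressed receptor with a death domain that recruits TRADD and the kinase RIPK1, while Tnfrsf1b encodes TNFR2, which lacks a death domain and is found mainly on immune, glial and endothelial cells. Signalling through TNFR1 activates the IKK kinases, which mark the inhibitor IkB-alpha (Nfkbia) for destruction and so free NF-kB dimers such as p50 (from Nfkb1) with p65 (Rela). In a slower, non-canonical route the precursor p100 (Nfkb2) is cut to p52, which pairs with RelB. Nfkbia, Tnfaip3 (the ubiquitin-editing enzyme A20), Birc3 (the ubiquitin ligase cIAP2) and Nfkb2 are textbook NF-kB target genes and form feedback loops. These statements are background, and RNA levels do not report the activity of the pathway.

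The libraries held 16746085 (WT), 16400328 (PS19) and 17109734 (PS19 Zbp1+/-) reads recovered from the deposited FPKM, a measure of fragments scaled to the length of the gene and to the size of the library. Levels are FPKM, which allows genes to be compared per length. Unless said otherwise, sets of 3 values follow the order WT, PS19, PS19 Zbp1+/-. A read ratio from a first to a second library divides the reads per library size of the second by those of the first, and is given with its exact (Clopper-Pearson) 95% interval, which covers counting error only. Zbp1, the targeted gene, had 5, 91 and 0 reads; the 0 reads do not settle a heterozygous genotype, and the group names are those of the labels. The PS19 Zbp1+/- library differed from the others in ways that cannot be told apart from genotype. It had 0 Xist reads and 711 Ddx3y reads against 11062 and 13350 Xist reads and 0 Ddx3y reads in WT and PS19, and its 5 choroid plexus markers summed to an FPKM of 10.4 against 3109 and 1899. Weak genes were also missing from it more often: of 1552 genes with 10 to 30 reads in both other libraries, 5.67% (exact interval 4.57% to 6.94%) had 0 reads there, against 0.341% (0.0931% to 0.872%) for WT by the same count. Markers of hippocampal neurons were present throughout: Prox1, of dentate granule cells, had 1268, 1379 and 690 reads, and Wfs1, of CA1 pyramidal cells, had 2537, 1775 and 1678.

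Of the 10 genes, 8 had their highest level in PS19, and 6 had their lowest in PS19 Zbp1+/-. Among all 12875 protein-coding genes that reached an FPKM of 1 in any library, PS19 was highest for 30.6% and PS19 Zbp1+/- lowest for 36.2%. Birc3, counted in the 8 and in the 6, stayed below an FPKM of 1 and is outside that background. Some of these places rest on differences within counting error, such as those of Tradd, and of Rela between PS19 and PS19 Zbp1+/-. Of the 6, only Nfkb2 and Nfkbia were below WT in PS19 Zbp1+/- beyond counting error. Relb was highest in WT and Tnfaip3 in PS19 Zbp1+/-. In WT the order of levels ran from Nfkbia at an FPKM of 18.9 and Rela at 10.4 through Tnfrsf1a (5.06), Tradd (3.60), Relb (2.98), Nfkb1 (1.91), Tnfrsf1b (1.78), Tnfaip3 (0.987) and Nfkb2 (0.969) to Birc3 (0.312). Neighbours in this order whose reads did not differ beyond counting error were Tradd and Relb, Nfkb1 and Tnfrsf1b, and Tnfaip3 and Nfkb2. In PS19 Tnfrsf1a stood level with Rela, the FPKM ratio of Rela to Tnfrsf1a being 1.04 (0.925 to 1.16), where it had been 2.06 (1.75 to 2.42) in WT. In PS19 Zbp1+/- Rela and not Nfkbia was the most abundant of the 10.

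**Figure D1:**
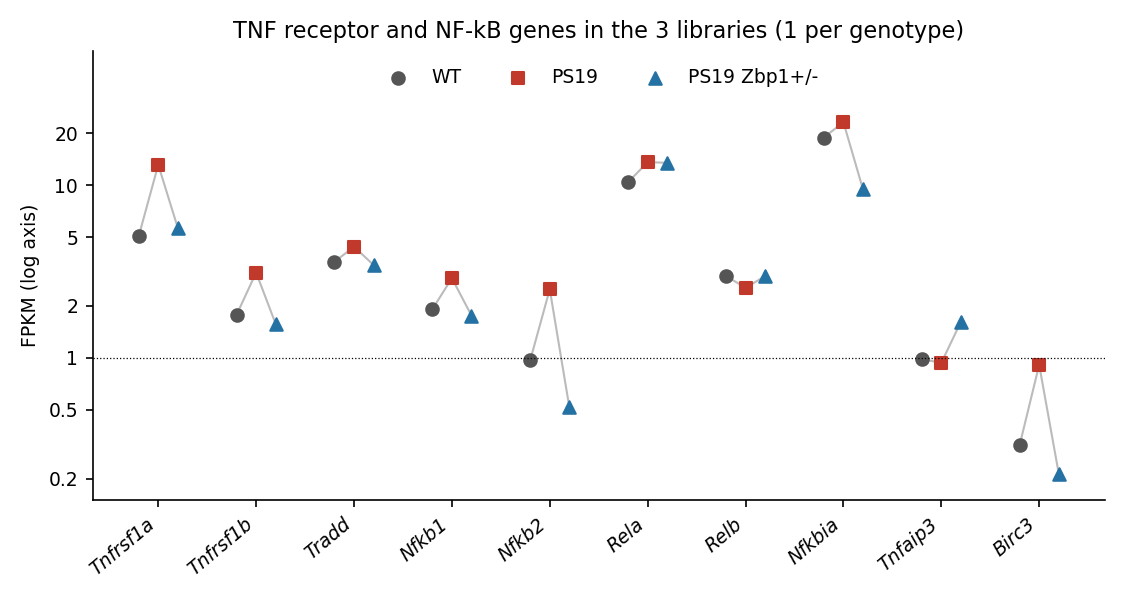
FPKM (log axis) of the 10 TNF receptor and NF-kB genes in WT (circles), PS19 (squares) and PS19 Zbp1+/- (triangles), 1 library each, with grey lines joining the values of a gene and a dotted line at an FPKM of 1. The squares stand highest for 8 genes, the exceptions being Relb and Tnfaip3, and Nfkbia goes from 23.2 in PS19 to 9.46 in PS19 Zbp1+/-.

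The threshold for calling a gene was 1 unit of log2(FPKM + 1), that is 2-fold on a scale that understates changes of weak genes. Protein-coding genes that reached an FPKM of 1 in either of the compared libraries were examined. In PS19 against WT 8 of the 10 genes passed that filter, and 1 of them, Tnfrsf1a, was at least 2-fold higher, beside 2.2% of 12703 genes. None of the 8 was 2-fold lower, beside 0.291%. By read ratio 2 of the 8, Tnfrsf1a and Nfkb2, were at least 2-fold higher, beside 4.51% of genes, and 0 were lower, beside 0.96%. The median difference of the 8 genes was 0.39, against -0.03 over all genes tested. The read ratio interval lay wholly above 1 for 6 of the 8, beside 28.3% of genes, and wholly below 1 for 0, beside 32.7%. A large share of all genes thus differed between these libraries by more than counting error. Birc3 and Tnfaip3, below an FPKM of 1 in both libraries, are outside these counts, and Nfkb2 passed through PS19 alone, where it was high.

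In PS19 Zbp1+/- against PS19, where 9 genes passed, 3 reached the threshold as lower, beside 5.16% of 12772 genes: Nfkbia, Nfkb2 and Tnfrsf1a. None of the 9 was 2-fold higher, beside 2%. The read ratio called the same 3 genes lower, beside 9.65%, and 0 higher, beside 3.63%. The median difference was -0.50, against 0.04 over all genes tested. Intervals lay wholly below 1 for 5 of the 9, beside 32.6% of genes, and wholly above 1 for 1, Tnfaip3, beside 39%. In PS19 Zbp1+/- against WT 0 of 8 genes were 2-fold higher (background 1.07% of 12436 genes) or lower (2.28%) on the log2 scale, and 0 by read ratio (2.61% higher, 4.78% lower), with a median of -0.03 against 0.01 over all genes. There the interval lay wholly above 1 for Rela and Tnfaip3, 2 of 8, beside 35.3% of genes, and wholly below 1 for Nfkbia, 1 of 8, beside 31.3%. Nfkb2 again passed through PS19 alone, and Tnfaip3 passed through PS19 Zbp1+/- alone, where it was high. PS19 enters the first and second comparison, so their opposite signs are not independent. With the libraries scaled to an equal sum of FPKM, all 10 genes passed from PS19 to PS19 Zbp1+/-. The read ratio then called 6 of the 10 lower, where the share of all genes tested rose to 14.2%. Tnfrsf1b at 0.413, Nfkb1 at 0.498 and Birc3 at 0.193 joined the 3 above. Birc3, like Nfkb2, passed there through PS19 alone, where it was high, so its call is a description. From WT to PS19 Zbp1+/- this scaling called Nfkbia lower at 0.450, 1 of 8, beside 6.43% of genes.

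**Figure D2:**
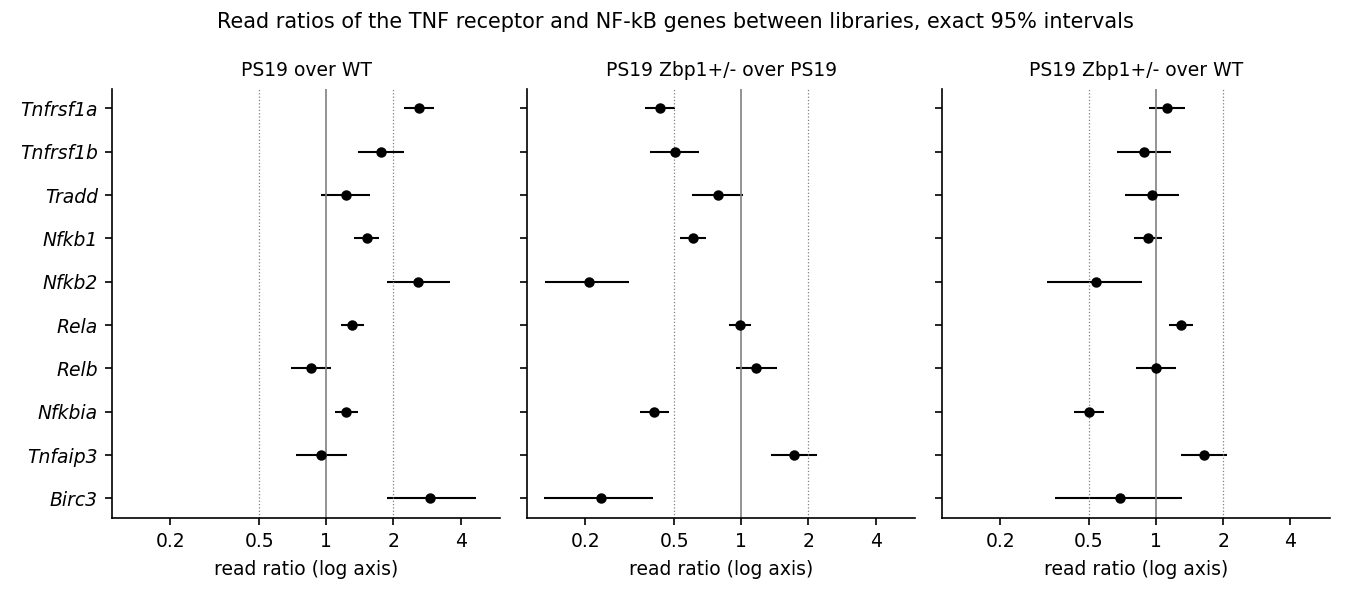
Read ratio (log axis) of each of the 10 genes between libraries, panel titles naming the numerator first; points are ratios per library size, bars exact 95% counting intervals, dotted lines 2-fold in either direction. In the right panel 6 of 10 bars cross 1, and Nfkbia lies at 0.501 and Tnfaip3 at 1.64.

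Of the receptors, Tnfrsf1a (ENSMUSG00000030341; GRCm38 chromosome 6, 125349362 to 125362484, plus strand) had an FPKM of 5.06, 13.1 and 5.66, from 226, 588 and 232 reads. PS19 stood apart, and the other libraries lay close together. The read ratio was 2.60 from WT to PS19 (2.22 to 3.04), 0.431 from PS19 to PS19 Zbp1+/- (0.369 to 0.503) and 1.12 from WT to PS19 Zbp1+/- (0.928 to 1.35). Its difference from WT of 1.22 on the log2(FPKM + 1) scale was exceeded by 166 of the 12703 genes tested.

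Tnfrsf1b (ENSMUSG00000028599; chromosome 4, 145213463 to 145246870, minus strand) was at an FPKM of 1.78, 3.12 and 1.57, from 117, 206 and 95 reads. It had the same order as Tnfrsf1a with a smaller span. Its read ratio was 1.76 from WT to PS19 (1.39 to 2.22) and 0.504 from PS19 to PS19 Zbp1+/- (0.391 to 0.645), just short of 2-fold and past it, at 0.442 and 0.487, with scaling by total reads and with the median of all genes subtracted. Within a library the ratio of 2 genes does not depend on how libraries are scaled. The FPKM of Tnfrsf1a was 2.85 times that of Tnfrsf1b (2.27 to 3.59) for WT, 4.21 times (3.58 to 4.95) for PS19 and 3.60 times (2.82 to 4.62) for PS19 Zbp1+/-, so TNFR1 RNA was the more abundant in each library and the intervals of WT and PS19 overlapped only between 3.58 and 3.59.

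Tradd, the death domain adaptor of TNFR1 (ENSMUSG00000031887; chromosome 8, 105258286 to 105264609, minus strand), was at an FPKM of 3.60, 4.40 and 3.45, from 116, 142 and 102 reads. The 3 values lay within counting error of each other. Its read ratio was 1.22 from WT to PS19 (0.949 to 1.58) and 0.785 from PS19 to PS19 Zbp1+/- (0.602 to 1.02). The FPKM of Tradd relative to its receptor Tnfrsf1a was 0.713 (0.565 to 0.895) for WT, 0.335 (0.277 to 0.403) for PS19 and 0.610 (0.479 to 0.774) for PS19 Zbp1+/-, lowest in PS19 with no overlap of its interval with the others.

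Marker sums of microglia and macrophages, astrocytes, oligodendrocytes and neutrophils were, like the receptors, highest in PS19. Those of endothelial cells, neurons, choroid plexus and T and B cells were not. The 8 microglia and macrophage markers summed to an FPKM of 126, 399 and 130. Of them 7 were higher in PS19 than in WT, 5 by at least 2-fold, and all 8 were lower in PS19 Zbp1+/- than in PS19. The 5 astrocyte markers summed to 254, 1031 and 248, all 5 higher in PS19 than in WT and all 5 lower in PS19 Zbp1+/- than in PS19. The 4 oligodendrocyte markers summed to 583, 1032 and 368, all 4 higher in PS19 than in WT and all 4 at least 2-fold below PS19 in PS19 Zbp1+/-. No marker of these 3 lists was at 0 reads in any library. The 4 neutrophil markers summed to 1.31, 4.05 and 0.640, with S100a9 at 7, 23 and 3 reads, S100a8 at 5, 18 and 0, Mpo at 7, 0 and 15 and Ly6g at 0 in each library. In bulk RNA, more cells of a type and more RNA per cell cannot be told apart, and the part of these cell types in the values of the 10 genes was not tested. Of 7 T and B cell markers none reached an FPKM of 1 in the libraries of a comparison, with 22, 43 and 29 reads in all, and 2, 1 and 5 of them at 0.

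Among the NF-kB subunits, Nfkb1 (ENSMUSG00000028163; chromosome 3, 135584655 to 135691547, minus strand) encodes p105, the precursor of p50. It had an FPKM of 1.91, 2.90 and 1.76, from 398, 604 and 336 reads. PS19 was highest, and WT and PS19 Zbp1+/- did not differ beyond counting error, their read ratio being 0.920 (0.794 to 1.07). The ratio was 1.51 from WT to PS19 (1.33 to 1.72) and 0.608 from PS19 to PS19 Zbp1+/- (0.530 to 0.696).

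Nfkb2 (ENSMUSG00000025225; chromosome 19, 46304737 to 46312090, plus strand) encodes p100, the precursor of p52. Its FPKM was 0.969, 2.5 and 0.519, from 55, 142 and 27 reads. All 3 libraries differed by more than counting error, PS19 highest and PS19 Zbp1+/- lowest. The read ratio was 2.58 from WT to PS19 (1.87 to 3.58), 0.208 from PS19 to PS19 Zbp1+/- (0.132 to 0.315) and 0.535 from WT to PS19 Zbp1+/- (0.325 to 0.863). Relative to Nfkb1 within a library, the FPKM of Nfkb2 was 0.507 (0.375 to 0.673) for WT, 0.862 (0.713 to 1.04) for PS19 and 0.295 (0.191 to 0.437) for PS19 Zbp1+/-, so the p100 gene stood nearest to the p105 gene in PS19 and farthest below it in PS19 Zbp1+/-. The end of Nfkb2 meets that of Psd, a gene on the opposite strand with 11989, 8854 and 11374 reads in the same order, and the strand setting of the count is not given in the sources used here.

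Rela and Relb did not follow the precursors. Rela, the p65 gene (ENSMUSG00000024927; chromosome 19, 5637483 to 5648130, plus strand), had an FPKM of 10.4, 13.6 and 13.5, from 487, 639 and 579 reads. WT was the low library here, and on the deposited scale the PS19 libraries lay together. The read ratio was 1.31 from WT to PS19 (1.16 to 1.48) and 0.990 from PS19 to PS19 Zbp1+/- (0.883 to 1.11). Under the scaling to an equal sum of FPKM the latter was 0.812, and with scaling by total reads it was 0.869. From WT to PS19 Zbp1+/- the ratio was 1.30 (1.15 to 1.47), and 1.16 under either of these scalings.

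Relb, the partner of p52 (ENSMUSG00000002983; chromosome 7, 19606217 to 19629438, minus strand), was at an FPKM of 2.98, 2.55 and 2.98, from 200, 171 and 183 reads, and was lowest in PS19. No pair of libraries differed beyond counting error, with a read ratio of 0.853 from WT to PS19 (0.692 to 1.05), 1.17 from PS19 to PS19 Zbp1+/- (0.944 to 1.45) and 0.997 from WT to PS19 Zbp1+/- (0.812 to 1.23). The sign of PS19 Zbp1+/- against PS19 turned under the scaling to an equal sum of FPKM, to a ratio of 0.959. The FPKM of Relb relative to Rela was 0.287 (0.242 to 0.339) for WT, 0.187 (0.157 to 0.222) for PS19 and 0.221 (0.186 to 0.261) for PS19 Zbp1+/-.

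Nfkb2, Nfkbia and Tnfaip3 were the genes of the 10 with the NF-kB consensus motif in the 250 bases before a RefSeq start (GRCm38.p6). They are shown because they hold the motif, whatever their levels. All 3 differed from WT in PS19 Zbp1+/- beyond counting error, Nfkb2 and Nfkbia below it and Tnfaip3 above. Rela, whose window held no match, did so too, at a read ratio of 1.30 (1.15 to 1.47). Among all genes tested there, 35.3% were above WT and 31.3% below it by the same measure, so such a difference was common. Nfkb2, below an FPKM of 1 in both libraries, is outside that background, and Tnfaip3 passed the filter through PS19 Zbp1+/- alone. RefSeq windows were at hand for 7 of the 10 genes; Tradd, Nfkb1 and Relb had none. Of 32851 windows of all genes 3.9% held the motif on either strand, and of 27025 genes 4.46% had such a window. Nfkb2 has several RefSeq starts, 3 of 3 windows with a match, and Tnfaip3 has 1 of 2; the window with the most matches is printed. The stretches below run 5′ to 3′ on the strand of the gene, with the bases that match the motif in capitals. They end at the RefSeq start for Nfkbia (150 bases, chr12:55492648-55492797, minus strand) and Tnfaip3 (137 bases, chr10:19015411-19015547, minus strand). The RefSeq start of Tnfaip3 lies inside the gene as the table places it. All of the last 150 bases before the Nfkb2 start are in a UTR of a GENCODE M21 transcript, so the matches alone are shown with up to 5 bases on each side (chr19:46304693-46304713 and chr19:46304721-46304736, plus strand).
Nfkb2, first stretch: gtcacGGGAATTCCCCccctc
Nfkb2, second stretch: cgaaaGGGGCTTTCCc
Nfkbia: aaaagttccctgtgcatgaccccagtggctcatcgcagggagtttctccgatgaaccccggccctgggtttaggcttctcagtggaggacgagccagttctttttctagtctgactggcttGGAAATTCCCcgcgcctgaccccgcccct
Tnfaip3: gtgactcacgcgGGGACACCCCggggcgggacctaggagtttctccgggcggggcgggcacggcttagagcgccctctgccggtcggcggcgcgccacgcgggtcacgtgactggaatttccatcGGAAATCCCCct

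In Nfkb2 the capitals open 39 and 11 bases before the start, and the first stretch holds 3 overlapping matches, since the motif reads on both strands there. In Nfkbia the single match opens 29 bases before the start on the opposite strand. Tnfaip3 has matches that open 125 bases before the start and, on the opposite strand, 12 bases before it. The windows of Tnfrsf1a, Tnfrsf1b, Rela and Birc3 held no match, which says only that these letters are not in those windows. A match describes the sequence and is not evidence of binding.

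Of the 3 genes with a match, Nfkb2 and Nfkbia had the same order of libraries, PS19 highest and PS19 Zbp1+/- lowest, and Tnfaip3 had another. Nfkbia, the IkB-alpha gene (ENSMUSG00000021025; chromosome 12, 55489410 to 55492647, minus strand), was at an FPKM of 18.9, 23.2 and 9.46, from 524, 645 and 241 reads. PS19 Zbp1+/- stood apart as the low library. The read ratio was 1.23 from WT to PS19 (1.09 to 1.38), 0.408 from PS19 to PS19 Zbp1+/- (0.351 to 0.474) and 0.501 from WT to PS19 Zbp1+/- (0.429 to 0.585). Its difference of -0.93 between PS19 Zbp1+/- and WT on the log2(FPKM + 1) scale was just short of 2-fold, and 339 of 12436 genes had a lower one.

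Against its main binding partner, the FPKM of Nfkbia was 1.82 times that of Rela (1.60 to 2.06) for WT, 1.70 times (1.52 to 1.90) for PS19 and 0.702 times (0.602 to 0.817) for PS19 Zbp1+/-. This ratio was alike in WT and PS19 and lower in PS19 Zbp1+/-, with no overlap of intervals. The choroid plexus markers, all 5 at least 2-fold below either other library in PS19 Zbp1+/-, were low there together with Nfkbia. From WT to PS19 they went the other way, all 5 lower where Nfkbia was higher. The part of choroid plexus RNA in Nfkbia was not tested. The 4 oligodendrocyte markers were also all lowest in PS19 Zbp1+/-.

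Tnfaip3, the A20 gene (ENSMUSG00000019850; chromosome 10, 19000910 to 19015657, minus strand), was at an FPKM of 0.987, 0.937 and 1.62, from 123, 117 and 185 reads. It had its highest level in PS19 Zbp1+/-, and WT and PS19 were indistinguishable at this depth. The read ratio was 0.949 from WT to PS19 (0.731 to 1.23), 1.73 from PS19 to PS19 Zbp1+/- (1.36 to 2.20) and 1.64 from WT to PS19 Zbp1+/- (1.30 to 2.08). The sign of PS19 against WT turned under the scaling to an equal sum of FPKM, to a ratio of 1.04. Relative to Nfkbia, the other inhibitor, the FPKM of Tnfaip3 was 0.0523 (0.0426 to 0.0638) for WT, 0.0404 (0.0329 to 0.0493) for PS19 and 0.171 (0.140 to 0.208) for PS19 Zbp1+/-. The 5 neuron markers summed to an FPKM of 655, 557 and 829, 4 of 5 higher and 1 lower in PS19 Zbp1+/- than in PS19, with Slc17a7, of excitatory neurons, at a read ratio of 2.15. The 5 endothelial markers summed to 32.9, 33.5 and 50.4. Of these, Cldn5, with 548, 467 and 853 reads, was higher in PS19 Zbp1+/- than in PS19, and the other 4 were lower, at read ratios between 0.801 and 0.935. The part of these cell types in Tnfaip3 was not tested.

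Birc3 (ENSMUSG00000032000; chromosome 9, 7848699 to 7873186, minus strand) was the weakest of the 10, at an FPKM of 0.312, 0.912 and 0.214, from 27, 79 and 17 reads. It was high in PS19 alone. The read ratio was 2.92 from WT to PS19 (1.87 to 4.70), 0.235 from PS19 to PS19 Zbp1+/- (0.130 to 0.401) and 0.686 from WT to PS19 Zbp1+/- (0.351 to 1.31). Its neighbour and paralog Birc2, which encodes cIAP1, had 631, 618 and 516 reads, and the FPKM of Birc3 relative to Birc2 was 0.0391 (0.0256 to 0.0575) for WT, 0.117 (0.0913 to 0.148) for PS19 and 0.0301 (0.0174 to 0.0487) for PS19 Zbp1+/-.

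**Figure D3:**
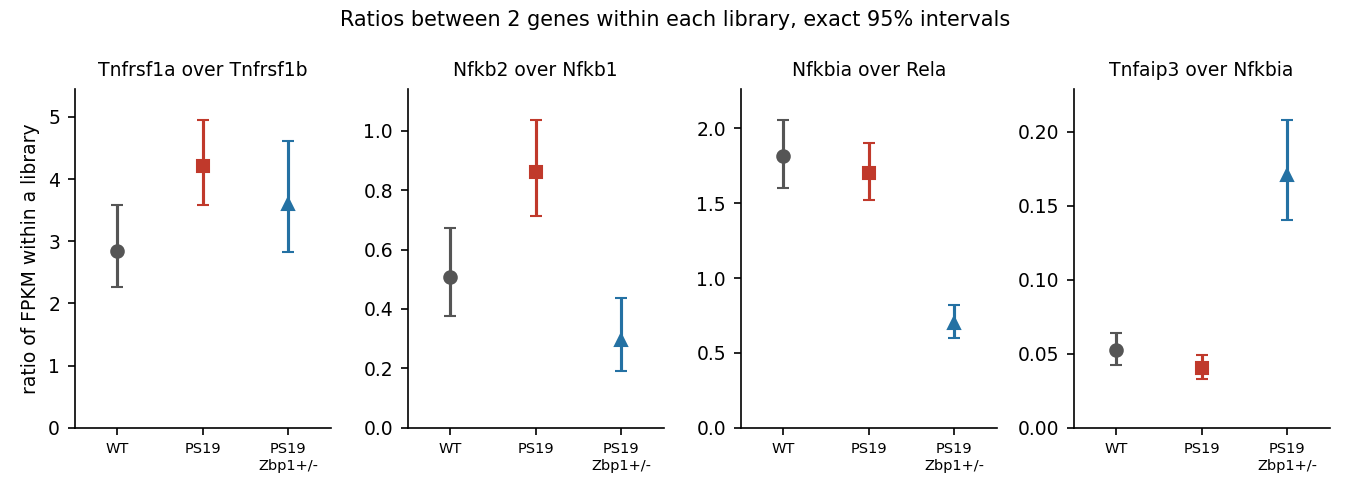
Ratio of the FPKM of 2 genes within each library, with exact 95% counting intervals, for WT (circle), PS19 (square) and PS19 Zbp1+/- (triangle); each axis starts at 0. Nfkb2 over Nfkb1 is highest in PS19 at 0.862, Nfkbia over Rela is lowest in PS19 Zbp1+/- at 0.702, and Tnfaip3 over Nfkbia is highest there at 0.171.

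The surrounding pathway was read from 7 lists with 101 genes in all, every gene of which was in the table. In PS19 against WT 59 passed the filter, 40 of them with a difference above 0 and 19 below, where 46.3% of all tested genes were above 0. Of the 59, 6 were at least 2-fold higher and 0 lower on the log2(FPKM + 1) scale, beside the backgrounds of 2.2% and 0.291%. In PS19 Zbp1+/- against PS19 16 of 59 were above 0 and 43 below, with 0 at least 2-fold higher and 9 lower, where 53.7% of all tested genes were above 0, 2% were 2-fold higher and 5.16% lower. By read ratio 10 were higher in the first comparison and 16 lower in the second, beside 4.51% and 9.65%. Genes that reached an FPKM of 1 in PS19 alone had to differ to pass: these were 14 of the 59 in the first comparison, with 5 of the 6 calls, and 11 in the second, with 7 of the 9, so the counts and medians describe the genes that passed and support nothing. The median over the 59 was 0.14 in the first comparison and -0.28 in the second, against -0.03 and 0.04 over all genes.

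Ligands of the TNF superfamily were at the edge of detection. Of 14 genes 1 passed the filter, Tnfsf12 (TWEAK), with 75, 82 and 49 reads and no 2-fold difference. Tnf itself had 0, 5 and 0 reads, which allows up to 3 reads in the libraries at 0, so a difference in Tnf was not detectable at this depth. Of 19 other TNF receptors 11 passed in PS19 against WT, with 8 above 0, a median of 0.51 and 0 past 2-fold on the log2 scale. By read ratio 3 were 2-fold higher, beside 4.51% of all genes. From PS19 to PS19 Zbp1+/- 4 of 11 were 2-fold lower by read ratio, beside 9.65%. Fas, Tnfrsf11a and Tnfrsf14 passed through PS19 alone in both comparisons and Ngfr in the first, so the median and these counts are descriptions. Fas, a death receptor, had 22, 64 and 10 reads and was at least 2-fold below PS19 in PS19 Zbp1+/-, at a difference of -1.18. Fas passed through PS19 alone in both comparisons, where it was high, so its calls are descriptions. Tnfrsf18 had 33, 79 and 43 reads, a read ratio of 2.39 from WT to PS19 (1.57 to 3.70). Tnfrsf25, another death receptor, went the other way with 837, 585 and 354 reads and was at -1.04 between PS19 Zbp1+/- and WT. Tnfrsf21, with 2420, 2267 and 3029 reads, was at -0.09 between PS19 and WT.

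Of 12 receptor adaptors and ubiquitin ligases 9 passed, 8 above 0 between PS19 and WT with a median of 0.18 and 0 past 2-fold on the log2 scale. By read ratio 1 was 2-fold higher, Casp8, the initiator caspase of death receptors, at 2.71 (1.89 to 3.96). From PS19 to PS19 Zbp1+/- 3 of 9 were 2-fold lower by read ratio, beside 9.65% of all genes. These were Casp8 at 0.172, Ripk1 at 0.435 and Cflar at 0.482. Casp8 and Ripk1 passed through PS19 alone in both comparisons, so their calls and the median are descriptions. Casp8 had 42, 114 and 18 reads and was at least 2-fold below PS19 in PS19 Zbp1+/- at -1.24, and Cflar, its inhibitor, had 430, 693 and 306. Ripk1, the kinase bound by TRADD, had 94, 148 and 59. Birc2 and Traf3, at the other end of the list, were at -0.03 and 0.02 between PS19 and WT.

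The TAK1 and IKK kinases had a median of 0.10 between PS19 and WT over 9 of 11 genes, with 5 above 0 and 4 below, and none past 2-fold on the log2 scale in any comparison. By read ratio 1 was 2-fold lower from PS19 to PS19 Zbp1+/-, Map3k14, which passed through PS19 alone. The subunits of the IKK complex had 871, 837 and 500 reads (Chuk), 792, 894 and 795 (Ikbkb) and 645, 792 and 664 (Ikbkg). Chuk, the catalytic subunit that acts on p100, was low in PS19 Zbp1+/- with a ratio of 0.626 to WT (0.559 to 0.699). Map3k14, which encodes NIK, the kinase that starts the non-canonical route, had 90, 152 and 56 reads, with a ratio of 1.69 from WT to PS19 (1.29 to 2.21) and 0.402 from PS19 to PS19 Zbp1+/- (0.291 to 0.550). Tab3 and Tbk1 were at -0.21 and -0.13 between PS19 and WT.

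LUBAC, the ligase of linear ubiquitin chains, and the deubiquitinases had a median of 0.00 between PS19 and WT (11 of 12 genes, 5 above 0 and 6 below) and 0 calls in either direction in all 3 comparisons on the log2 scale. By read ratio 1 gene was 2-fold lower from PS19 to PS19 Zbp1+/-, Otud7b at 0.498. Otud7b, a deubiquitinase of the non-canonical route, stood highest at 0.73, with 986, 1745 and 795 reads, followed by Itch at 0.25, while Sharpin and Otulin were both at -0.17.

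The other Rel and IkB proteins held a 2-fold call. Bcl3, an atypical IkB protein that binds p50 and p52, had 8, 78 and 9 reads. PS19 stood apart as the high library, with a read ratio of 9.73 from WT to PS19 (4.70 to 23.3) and of 0.126 from PS19 to PS19 Zbp1+/- (0.0556 to 0.252). The median of the 7 of 8 genes that passed was 0.21. Of the 7, 3 passed through PS19 alone in PS19 against WT, Bcl3 among them. Bcl3 also passed through PS19 alone against PS19 Zbp1+/-, so the call and the median are descriptions. Nfkbie, which encodes IkB-epsilon, was at 0.36, Nfkbib (IkB-beta) at -0.09 and Nkiras1 at -0.47. Rel, the gene of the subunit c-Rel, was below the filter with 95, 118 and 55 reads.

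Of 25 NF-kB target genes 11 passed in PS19 against WT, with a median of 0.64, and 11 in PS19 Zbp1+/- against PS19, with a median of -1.08. In each comparison 4 of the 11, Cxcl10, Ccl5, Icam1 and Lcn2, passed through PS19 alone, where they were high, so these medians and the counts that follow are descriptions. On the ratio of reads set to at least 3, the medians were 0.74 and -1.53 log2 units. In PS19, 5 targets were at least 2-fold higher than in WT and 0 lower, beside 2.2% and 0.291% of all genes. The chemokine gene Cxcl10 led with 13, 186 and 4 reads, and Ccl5 had 0, 39 and 0 reads, at least 13-fold higher in PS19 than in WT against a floor of 3 reads per library, taking the 39 reads as exact; with their counting error the exact interval starts at 10.1. The other three, named after their values were seen, were the growth factor gene Csf1 (460, 1276 and 405 reads), the adhesion molecule gene Icam1 (38, 160 and 33) and Lcn2 (11, 68 and 6), a secreted protein of reactive astrocytes. The same 5 genes and Vcam1 (696, 852 and 215 reads) were at least 2-fold below PS19 in PS19 Zbp1+/-, 6 in all, beside 5.16% of all genes. Gadd45b and Ptgs2 were at -0.22 and -0.13 between PS19 and WT. Cxcl10 and Ccl5 are also interferon response genes and Csf1, Icam1 and Lcn2 are made by activated glia, so the list is not specific to NF-kB, and 14 of its 25 genes were below the filter.

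**Figure D4:**
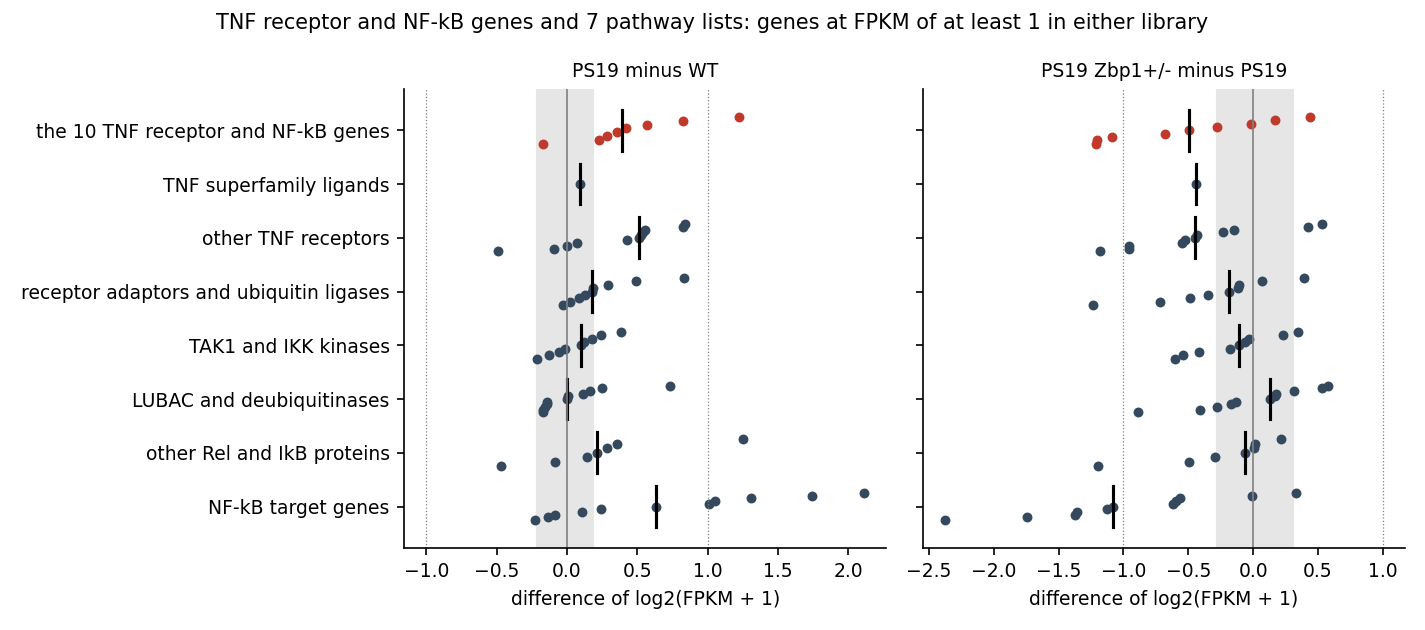
Difference of log2(FPKM + 1) for the 10 TNF receptor and NF-kB genes and for 7 pathway lists in PS19 minus WT (left) and PS19 Zbp1+/- minus PS19 (right); points are genes that reached an FPKM of 1 in either library, black bars list medians, grey bands the interquartile range of all genes tested and dotted lines 2-fold. The black bar of the NF-kB target genes lies at 0.64 on the left and -1.08 on the right, over genes of which 4 of 11 passed through PS19 alone.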

How the data were processed

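Hippocampal RNA from 3 mouse samples, 1 per genotype, was analysed from 1 deposited table. Per the submitters' processing notes, reads were handled with Trim Galore 0.6.5, STAR 2.5.3a and featureCounts 2.0.4, with mm39 named as the build. The gene positions in the table are those of GRCm38, however: they equal GENCODE M21 positions for 98.3% of 54409 shared IDs and for 9 of the 10 genes, and are printed as deposited. The values are FPKM made by the authors. FPKM times gene length was a whole multiple of 1 step (within 0.05) in 100% of values of each column, which gave reads and implied library sizes of 17253479, 17287957 and 15826984 for WT, PS19 and PS19 Zbp1+/-. The implied size was below the recovered reads for PS19 Zbp1+/- and above them for WT and PS19.

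The measures were the difference of log2(FPKM + 1) and the read ratio per implied library size (reads set to at least 3 for 2-fold calls), over protein-coding genes that reached an FPKM of 1 in either library; intervals are exact 95% ones. No molecular identifiers are named in the sources used here, so reads need not be independent molecules. The 10 genes and all lists were chosen with earlier results of these data known. All 10 are named; each pathway list gives the 2 genes with the highest and the 2 with the lowest PS19 minus WT difference, plus Tnf, Rel, Ripk1, Ikbkb, Ikbkg and Chuk. Markers of 8 cell types were summed. The procedure was tested on simulated data. Alternatives were pseudocounts, filters, scalings and a 1.5-fold threshold. Intervals came from scipy 1.17.1, tables from pandas 2.3.3 with numpy 2.4.6, and figures from matplotlib 3.10.9, under Python 3.11.15.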

Additional observations from a re-analysis of the deposited data

How the results depend on the processing

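With 1 library per genotype, no replicate could be left out and no paired analysis was possible because the groups hold 1 sample each. Of 168 single-gene differences recomputed under the alternatives, 6 moved by at least 0.5 times the width of their counting interval on the log2 scale. Another count, of changed signs, was 2 (Tnfaip3 in PS19 against WT and Relb in PS19 Zbp1+/- against PS19, neither past 2-fold), and 0 past 2-fold reversed. Percentages in brackets below are the share of all genes tested under the same setting. In PS19 against WT, the genes past the threshold as higher on the log2 scale numbered 2 in place of 1 under several settings. These were a pseudocount of 0.1 (4.26%), one of 0.5 (3.06%) and a threshold of 1.5-fold (6.34%). By read ratio they numbered 1 in place of 2 with a mean FPKM of at least 5 (3 genes left, 1.31%) and 4 at 1.5-fold (10%). With no filter (5.21%) and after scaling to an equal sum of FPKM (5.65%) they numbered 3, Birc3 being added. Under that scaling Birc3 passed through PS19 alone. In PS19 Zbp1+/- against PS19 the lower genes by read ratio numbered 6 in place of 3 after scaling to an equal sum of FPKM (14.2%). Of the 6, Birc3 and Nfkb2 passed through PS19 alone. The lower genes numbered 5 at 1.5-fold (16.8%), with 1 higher (12.7%). With no filter (10.4%), with scaling by total reads (12.3%) and with the median of all genes subtracted (10.3%) they numbered 4. The median was -1.09 over the 3 genes left by a mean FPKM of at least 5. In PS19 Zbp1+/- against WT 1 gene was lower on the log2 scale after scaling to an equal sum of FPKM (2.98%), after scaling by total reads (3%) and at 1.5-fold (7.12%). By read ratio 1 was lower under these (6.43%, 6.5% and 11%) and with the median of all genes subtracted (4.95%). At 1.5-fold 1 was higher by read ratio (10.6%), and the median was 0.14 over the 3 genes left by a mean FPKM of at least 5. Scaling to an equal sum of FPKM shifted the all-gene median from 0.04 to -0.21 in PS19 Zbp1+/- against PS19 and from 0.01 to -0.13 against WT, and scaling by total reads to -0.12 and -0.13. The share of higher genes among all 2-fold calls went with it from 27.9% to 10.5% and 14.6%, and against WT from 32% to 17.1% and 17.3%. The stricter filter left fewer genes; for the other settings the cause was not tested. Depth limits the weak genes, Birc3 resting on 27, 79 and 17 reads.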

Other observations

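Some ligand genes below the filter on low values are described here. They were chosen after their values were seen. Tnfsf8, the CD30 ligand gene, had 3, 47 and 0 reads (order WT, PS19, PS19 Zbp1+/-), a ratio of 15.6 from WT to PS19 (exact 95% interval 5.03 to 78.5), and was at least 14.3-fold below PS19 in PS19 Zbp1+/- against a floor of 3 reads per library, taking the 47 reads as exact; with their counting error the exact interval starts at 11.2. Tnfsf13b, the gene of the B cell survival factor BAFF, had 15, 73 and 47 reads and stayed above WT in PS19 Zbp1+/-, with a ratio of 3.42 (1.88 to 6.58) after 4.86 (2.76 to 9.12) in PS19. Ltb, which encodes lymphotoxin beta, had 6, 23 and 18 reads, with ratios to WT of 3.83 (1.51 to 11.5) in PS19 and 3.27 (1.24 to 10.1) in PS19 Zbp1+/-. For Tnfsf8 the ratio from WT to PS19 Zbp1+/- was 0 (0 to 2.64), an interval that overlaps those of Tnfsf13b and Ltb. Weak genes were more often at 0 reads in PS19 Zbp1+/-, and neither the floor nor these intervals cover that.

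Map3k8, which encodes the kinase Tpl2 held by p105, had 45, 43 and 7 reads. It was level between WT and PS19, with a ratio of 0.954 (0.613 to 1.48), and low in PS19 Zbp1+/- against WT, with a ratio of 0.170 (0.0645 to 0.379). Nfkbia and Vcam1, too, were lower in PS19 Zbp1+/- than in WT, Vcam1 with a ratio of 0.337 (0.288 to 0.393). These 3 values come from the library in which all 5 choroid plexus markers were at least 2-fold lower than in WT. It is also the library in which weak genes were more often at 0 reads.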
